A study of Sparus aurata with 5 samples.

Results

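LB-GUThealth and LB-GREENboost, 2 functional feed ingredients made from hydrolysed microalgae, were compared at the same dietary inclusion of 0.5%, by the expression of 14 genes in the anterior intestine of gilthead seabream (Sparus aurata). The comparison was made of the sample labelled GH5 (LB-GUThealth) and the sample labelled GB5 (LB-GREENboost), with every fish and every target gene of both, and these are 2 of 5 samples and 24 of 60 fish of the series. Each sample is a diet group with 12 juvenile fish. The other diets were a control without either ingredient (CT) and the same ingredients at 1% (GB10 and GH10), and they are used here only where the text says so.

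GB5 and GH5 fish received the same basal feed at the same inclusion of the functional ingredient, so that the diets differed in which ingredient was added. Both ingredients hold hydrolysed microalgae of the genera Arthrospira and Microchloropsis with choline, calcium carbonate and betaine, and LB-GREENboost holds the larger share of the hydrolysed blend and LB-GUThealth the smaller. The comparison therefore asks whether 2 formulations with unequal shares of the same hydrolysate were followed by different transcript levels. It does not separate the hydrolysate from the other components, which change with it. The fish of a diet were kept in several tanks and the tank of each fish was not identified here, so fish were taken as replicates and the p-values would be too small if tanks differed.

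Intestinal epithelial cells are joined by tight junctions, in which claudins of neighbouring cells pair across the gap between them. Some claudins seal this gap and others, such as Claudin-15, are known from mammals to form channels for small cations. Occludins are membrane proteins of the same junctions. Below the epithelium lie lymphocytes that produce antibody, marked here by igm, and helper T cells, marked by cd4. The cytokine interleukin-10 (il10) restrains inflammation, and Toll-like receptor 9 (tlr9) recognises microbial DNA. The panel holds no gene that defines the anterior part of the intestine, so the tissue label was not checked against a marker. In pieces of whole intestine, fewer cells of a type and less RNA per cell cannot be told apart.

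Expression was measured by real-time qPCR and is given as relative expression, the template of a gene over that of the reference gene eef1a, scaled so that control fish have a mean of 1. A log2 difference of 1 stands for a doubling. Of 336 possible values in both diets, 327 had a ratio, 162 in GB5 and 165 in GH5. The mean cycle of the targets ran from 24.1 for oclnc to 32.4 for cldn4 in GB5 and from 24.2 to 32.4 for the same genes in GH5. Genes are listed by symbol, and 3 of 14 targets matched the RefSeq gene table of assembly fSpaAur1.1, where cldn4 is named cldnb, cldn4l is named cldnk and oclnl has no gene name.

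No difference of the reference gene between the diets was detected. The eef1a cycle was 18.7 ± 0.309 (SD, n = 12) in GB5 and 18.6 ± 0.212 (n = 12) in GH5, a difference of −0.07 cycles (95% interval −0.295 to 0.154, permutation test, p = 0.526). A lower cycle stands for more template. Ratios of the 3 occludins follow from a second list of eef1a cycles, and only 4 of 12 of its GB5 cycles and 3 of 12 of its GH5 cycles occur in the first list of the same diet. The occludin values are therefore given with this limit, since their reference cycles may belong to other fish.

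Claudin-4-like (cldn4l) was lower in fish fed LB-GUThealth than in fish fed LB-GREENboost, and it was the only gene of the panel whose mean passed the threshold of 0.05. The other claudins, the occludins and the immune genes had differences whose intervals included no difference. In the deposited values, 8 genes had the lower mean log2 expression in GH5 and 6 the higher, with a median difference of −0.06. Recomputed from all cycles, which returns the fish left out by the authors, 9 genes were lower and 5 higher with eef1a. From the same cycles with the mean of all targets as the reference, 6 genes were lower and 8 higher. That setting moved the median of all genes by 0.12 from the deposited values. In the fish with a ratio, with the mean of the claudins, cd4, il10 and tlr9 as the reference, 5 were lower and 9 higher. The background of the comparison is thus 1 of 14 genes, or 7.14%, at an unadjusted p under 0.05 (permutation test, n = 9 to 12 fish per diet), and 0 of 14 after Benjamini-Hochberg adjustment over the 14 genes, with adjusted values from 0.177 to 0.884. With limma fitted over the 5 diets, 1 gene was under 0.05 before adjustment, again cldn4l.

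**Figure D1:**
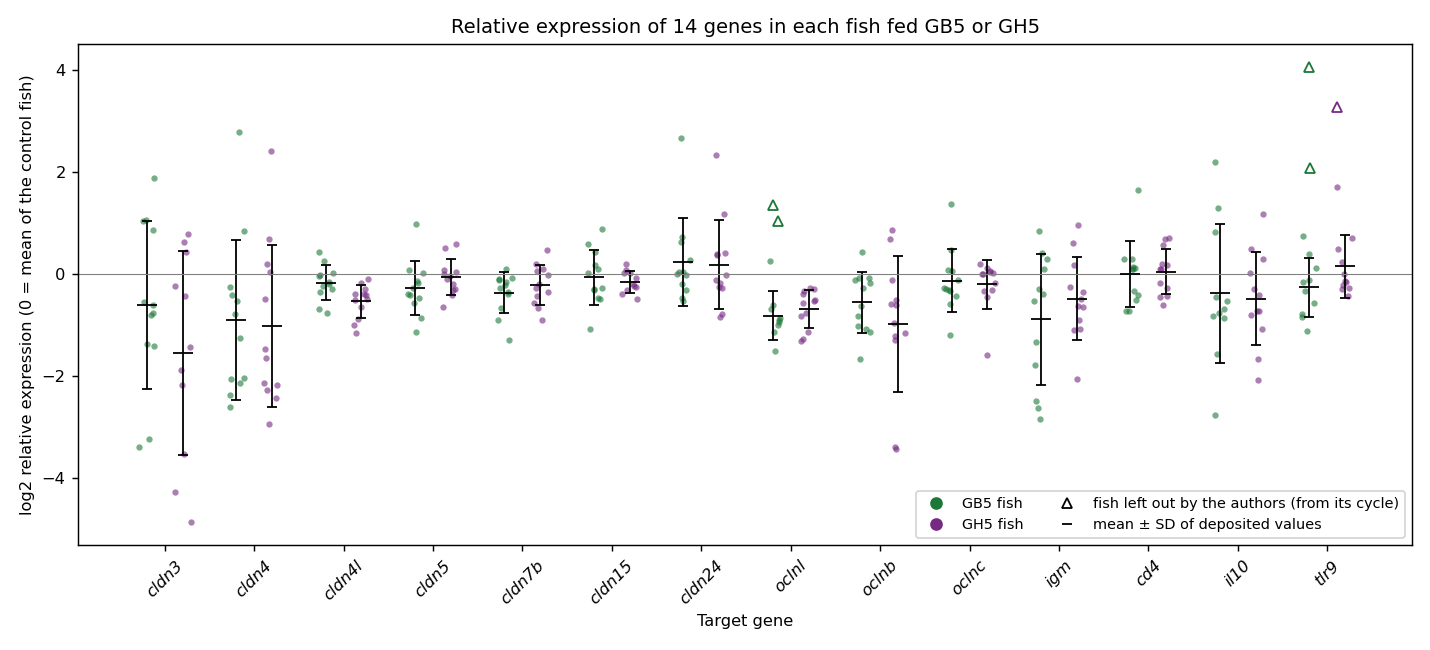
Log2 relative expression (y axis, 0 is the mean of the control fish) of 14 genes (x axis) in each GB5 fish (green points) and each GH5 fish (purple points), with the mean ± SD of the deposited values as black bars and values left out by the authors as open triangles, computed from their cycles. The points of both diets overlap in every gene, cldn4l is shifted down in GH5, and the points of cldn15 are closer together in GH5 than in GB5.

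Among the 7 claudins, cldn4l is named after Claudin-4, which in mammals tightens the junction. In GB5 its relative expression ran from 0.588 to 1.35 with a median of 0.889, and in GH5 from 0.449 to 0.933 with a median of 0.737. The groups overlapped, but 11 of 12 GH5 fish lay below the median of GB5, 5 GB5 fish lay above the highest GH5 fish, and 3 GH5 fish lay below the lowest GB5 fish. Mean relative expression was 0.916 ± 0.216 (SD, n = 12) in GB5 and 0.706 ± 0.149 (n = 12) in GH5. On the log2 scale the difference was −0.37 ± 0.14 (SE, 95% interval −0.66 to −0.09), a ratio of 0.774 between the geometric means of the diets (0.635 to 0.941). The two-sided permutation test gave p = 0.0126 and a Benjamini-Hochberg value of 0.177. In a randomly drawn pair of one fish from each diet, the GH5 fish was the higher in 19.4% of the pairs.

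The lower level of cldn4l in GH5 kept its direction in all 12 settings tried. Its p stayed under 0.05 in 7 of them and ran from 0.00974 to 0.304 (permutation tests and limma). These settings are not independent. No cldn4l value had been left out, so recomputation from all cycles and the use of 1 eef1a list repeat the main values. Settings that changed only the test or its adjustment keep the difference of −0.37, so their direction was fixed beforehand. With any single fish left out the difference stayed between −0.42 and −0.31 and p between 0.00351 and 0.0258. In the permutation test the call was lost where eef1a was not the reference, with −0.30 and p = 0.0597 for the target cycle alone and −0.25 and p = 0.266 for the mean of all targets. It was also lost in the fish with all genes (−0.25, exact permutation test, p = 0.148) and where the p was adjusted over the 10 pairs of 5 diets (0.236). Control fish set the scale for all diets, and enter limma and the adjustment over pairs of diets but not the other tests. Their mean for cldn4l was 1.00 ± 0.341 (SD, n = 12).

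Claudin-5 (cldn5), a sealing claudin of mammalian blood vessels and epithelia, had the opposite direction. Its relative expression ran from 0.454 to 1.98 with a median of 0.800 in GB5, and from 0.645 to 1.51 with a median of 0.959 in GH5. The highest value of GB5 was that of fish 4, and the next GB5 fish was at 1.06. Of the GH5 fish, 10 of 12 lay above the median of GB5, yet the groups overlapped over most of their range. The log2 difference was 0.22 (95% interval −0.17 to 0.59, permutation test, p = 0.258, Benjamini-Hochberg 0.736). Without fish 4 of GB5 it was 0.33 (permutation test, p = 0.0393), the smallest p with any single fish left out. Without fish 11, the highest of GH5, it was 0.16 (permutation test, p = 0.407). Without both fish it was 0.27 (permutation test, p = 0.0718). With the mean of all targets as the reference it was 0.33 (permutation test, p = 0.0291, Benjamini-Hochberg 0.407).

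Claudin-15 (cldn15), the channel-forming claudin, had a similar mean in both diets but a different spread. It ran from 0.473 to 1.86 with a median of 0.922 in the 12 GB5 fish, and from 0.717 to 1.16 with a median of 0.874 in the 11 GH5 fish with a value. The lowest and the highest GH5 fish both lay inside the range of GB5, with 3 GB5 fish above all of GH5. The log2 difference of the means was −0.09 (95% interval −0.45 to 0.27, permutation test, p = 0.616). The SD between fish was 0.54 in GB5 and 0.21 in GH5 on the log2 scale, a ratio of 2.52, and the permutation test of the distance from the median of the diet gave p = 0.0182.

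That difference of spread was the only one under 0.05, again 7.14% of the 14 genes, and its Benjamini-Hochberg value was 0.255. The spread was smaller in GH5 in 9 of 14 genes. Without eef1a, the SD of cldn15 in GH5 was 0.744 of that in GB5 and the permutation test gave p = 0.350, and leaving out any 1 of 5 GB5 fish (2, 4, 5, 9 or 11) gave p between 0.0558 and 0.0907. In oclnb the order was the other way, with an SD of 0.60 in GB5 and 1.33 in GH5 (permutation test, p = 0.156).

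Claudin-3 (cldn3), a sealing claudin in mammals, had the widest interval of the panel. Its relative expression ran from 0.0950 to 3.72 with a median of 0.625 in the 12 GB5 fish, and from 0.0344 to 1.73 with a median of 0.374 in the 11 GH5 fish with a value. The fish of both diets lay apart by more than an order of magnitude and overlapped, with 4 GB5 fish above every GH5 fish and 3 GH5 fish below every GB5 fish. The log2 difference was −0.93 (95% interval −2.52 to 0.65, permutation test, p = 0.232), so that a halving and a rise both lie in the interval.

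No difference between the diets was detected in the remaining claudins. Claudin-4 (cldn4) had a mean of 1.09 ± 1.88 (SD) in GB5 and 0.957 ± 1.46 in GH5, with a log2 difference of −0.12 (−1.47 to 1.21). In both groups a single fish set the mean, at 6.87 in GB5 and 5.33 in GH5. For cldn7b the mean was 0.801 ± 0.191 in GB5 and 0.891 ± 0.242 in GH5, with a difference of 0.15 (−0.18 to 0.49). Claudin-24 (cldn24) had a mean of 1.50 ± 1.56 in GB5 and 1.41 ± 1.24 in GH5, with a difference of −0.05 (−0.78 to 0.67), and this sign turned with the mean of all targets as the reference (0.066) and with the cycle alone (0.0175). Over the 7 claudins in the deposited values, 5 had the lower mean in GH5 and 2 the higher, and 1 of the 7 was under 0.05. The median difference was −0.09 beside −0.06 for all genes. With eef1a kept as the reference, the signs of cldn4 and cldn24 turned without fish 4 of GB5 (0.22 and 0.17). Those of cldn4, cldn15 and cldn24 turned in the fish with all genes (0.31, 0.017 and 0.020).

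**Figure D2:**
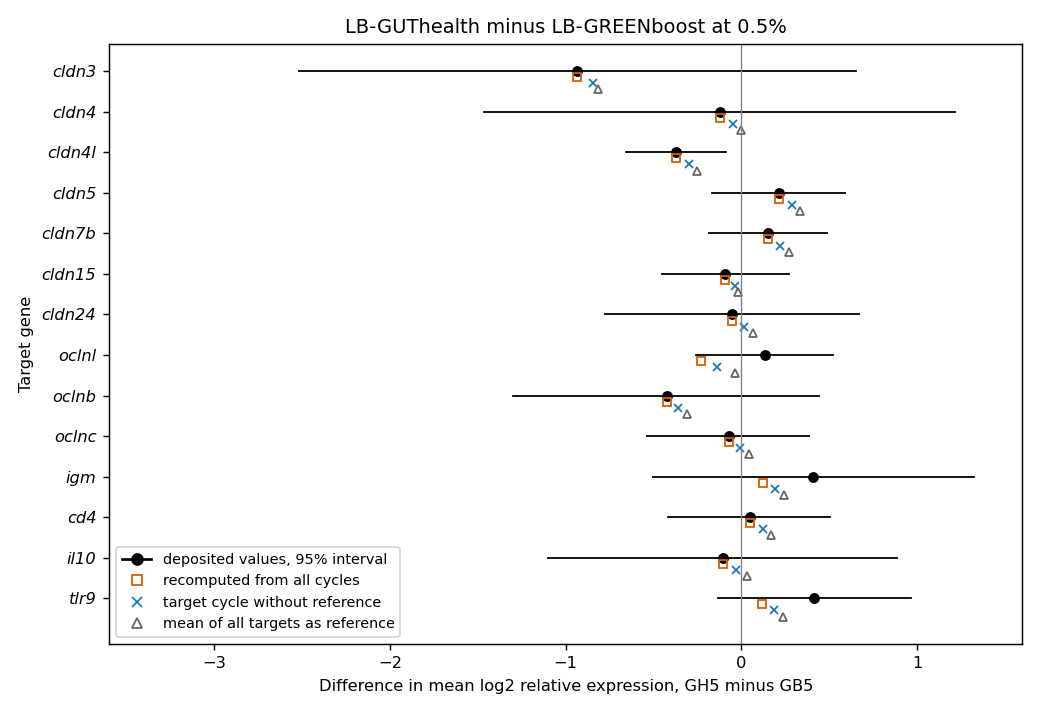
Difference in mean log2 relative expression, GH5 minus GB5 (x axis), of 14 genes (y axis), from the deposited values with its 95% interval (black point and line), recomputed from all cycles (orange square), from the target cycle alone (blue cross) and with the mean of all targets as the reference (grey triangle). The interval of cldn4l runs from −0.66 to −0.09 and is the only one that excludes 0, while oclnl changes sign where the 2 GB5 fish left out by the authors are returned, as in all 3 other versions shown, and the recomputed igm uses cycles equal to those of cldn15 in 4 fish of each diet.

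Of the occludins, oclnl (occludin-like) had the fewest values, because 2 GB5 fish had been left out by the authors and another had no usable cycle. Among the 9 GB5 fish kept, relative expression ran from 0.353 to 1.20 with a median of 0.535, and among the 12 GH5 fish from 0.404 to 0.830 with a median of 0.684. The groups overlapped, with 1 GB5 fish above every GH5 fish and 8 of 9 GB5 fish below the GH5 median. The mean was 0.601 ± 0.241 (SD, n = 9) in GB5 and 0.643 ± 0.155 (n = 12) in GH5, and the log2 difference was 0.14 (95% interval −0.26 to 0.52, exact permutation test, p = 0.480).

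The GB5 fish left out for oclnl were fish 3 and fish 8, and their cycles give 2.07 and 2.57 on the deposited scale, above the highest control fish at 1.75. With these fish returned the difference of oclnl became −0.23, with GH5 the lower (permutation test, n = 11 and 12, p = 0.439). The direction of the oclnl difference therefore depended on these 2 fish, and neither version passed the threshold. With the deposited fish alone it was positive under each reference tried, at 0.18 for the target cycle alone, 0.24 for the mean of all targets and 0.10 for the eef1a list of the other genes (exact permutation tests, p = 0.255, 0.375 and 0.597), settings chosen after seeing the data.

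The occludin oclnb had a mean of 0.736 ± 0.293 (SD) in GB5 and 0.699 ± 0.534 in GH5, with a log2 difference of −0.42 (−1.30 to 0.44, permutation test, p = 0.335). Fish 4 and fish 12 of GH5 lay below every GB5 fish, the lower at 0.0926. For oclnc the mean was 1.01 ± 0.547 in GB5 and 0.909 ± 0.221 in GH5, with a difference of −0.07 (−0.54 to 0.39). Here the median had the other sign, at 0.826 in GB5 and 1.00 in GH5, and so did the difference with the mean of all targets as the reference (0.043). Fish 10 of GB5 was at 2.58 and the next GB5 fish, fish 9, at 1.38. Without fish 10 the oclnc difference was 0.068 (permutation test, p = 0.728). The oclnc cycle was 23.605 in fish 10 and 23.48 in fish 9, so the higher ratio of fish 10 comes from its cycle in the second eef1a list. Over the 3 occludins, 2 were lower and 1 higher in GH5 in the deposited values, and 0 were under 0.05 unadjusted (permutation test and limma). The sign of oclnl turned where the left-out fish are returned, and that of oclnc under another reference or without fish 10 of GB5.

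Toll-like receptor 9 (tlr9) had the second smallest p of the panel. In 10 GB5 fish its relative expression ran from 0.462 to 1.69 with a median of 0.853, and in 11 GH5 fish from 0.745 to 3.26 with a median of 0.908. In GB5, 4 fish lay below every GH5 fish, fish 10 of GH5 was far above the next at 1.64, and the groups overlapped in between. The mean was 0.901 ± 0.380 (SD, n = 10) in GB5 and 1.23 ± 0.728 (n = 11) in GH5, with a log2 difference of 0.41 (95% interval −0.13 to 0.97, permutation test, p = 0.138). Leaving out fish 5 of GB5, its highest, gave 0.52 (exact permutation test, p = 0.0490). Leaving out fish 10 of GH5, its highest, gave 0.26 (permutation test, p = 0.258). These were the lowest and the highest p with any single fish left out.

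For tlr9 the authors had left out fish 4 and fish 8 of GB5 and fish 11 of GH5. On the deposited scale their cycles correspond to 16.7, 4.22 and 9.65, beside 1.62 in the highest control fish that was kept and 12.9 in control fish 6, which had been left out too. All 3 lie above every fish that was kept in either diet. With them the difference was 0.12 (permutation test, n = 12 in each diet, p = 0.828), and GH5 stayed the higher. The difference of tlr9 was thus 0.41 without these 3 fish and 0.12 with them.

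The lymphocyte genes differed by less than their spread, as did every other gene but cldn4l. For igm the mean was 0.739 ± 0.535 (SD) in GB5 and 0.831 ± 0.488 in GH5, and the log2 difference was 0.41 (−0.50 to 1.33, permutation test, p = 0.358), while the median was lower in GH5 (0.683) than in GB5 (0.731). The deposited igm cycles of fish 9 to 12 in each diet are equal to their cldn15 cycles, but the deposited igm ratios of these fish do not follow from those cycles. In fish 9 of GB5, for example, the deposited ratio was 0.140 and the cycle gives 1.81. Without those 4 fish per diet the difference was 0.20 (permutation test, p = 0.708). For cd4 the mean was 1.12 ± 0.676 in GB5, where fish 7 was at 3.14, and 1.09 ± 0.341 in GH5, with a difference of 0.05 (−0.42 to 0.51). The cytokine il10 had a mean of 1.18 ± 1.31 (n = 11) in GB5 and 0.859 ± 0.563 in GH5, with a difference of −0.11 (−1.10 to 0.89). Over the 4 immune genes, 1 was lower and 3 higher in GH5, with il10 the gene whose sign turned under the mean of all targets (0.034), and 0 were under 0.05 unadjusted (permutation test and limma).

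All 14 genes were then compared in 1 test. In the 16 fish that had no missing gene, 9 of GH5 and 7 of GB5, the diet accounted for 5.67% of the variance of the scaled log2 profile (exact permutation test, p = 0.636). Without the occludins and igm, whose reference or cycles are in doubt, it was 6.33% in 18 fish (permutation test, p = 0.384).

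**Figure D3:**
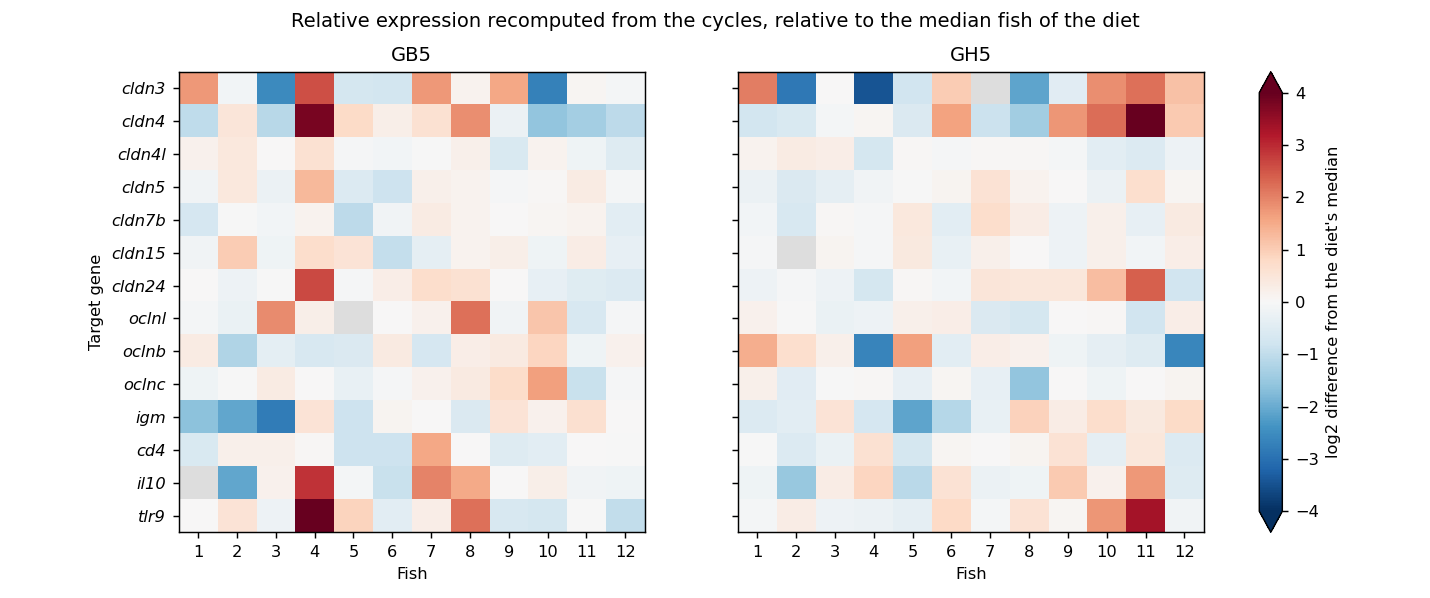
Log2 relative expression recomputed from the cycles, as the difference from the median fish of the diet (colour scale), for 14 genes (y axis) in each of 12 GB5 fish (left, x axis) and 12 GH5 fish (right, x axis), with missing cycles in grey. Fish 4 of GB5 and fish 11 of GH5 are dark red in cldn4, cldn24 and tlr9, and the igm cells of fish 9 to 12 hold cycles equal to those of cldn15.

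A single fish in each diet stood apart. Recomputed from the cycles, fish 4 of GB5 had the highest value of its diet in 7 of 14 genes, namely cldn3, cldn4, cldn4l, cldn5, cldn24, il10 and tlr9. Fish 11 of GH5 was the highest in 6 genes, and all 6 of them (cldn3, cldn4, cldn5, cldn24, il10 and tlr9) are among those 7. In cldn24, for example, fish 4 of GB5 was at 6.37 and the next fish at 1.65, and fish 11 of GH5 was at 5.07 and the next at 2.27. Control fish 6 was likewise the highest of its diet in cldn3, cldn4 and il10, at 4.36, 7.41 and 3.20, and its cldn24 cycle corresponds to 10.3 but was left out, while the cldn24 values of the GB5 and GH5 fish were kept. The eef1a cycles of the GB5 and GH5 fish were 18.875 and 18.25, the latter the lowest of GH5. In cldn4l they went apart, since fish 4 was the highest of GB5 at 1.35 and fish 11 was near the bottom of GH5. Without both fish the cldn4l difference was −0.27 (permutation test, n = 11 in each diet, p = 0.0475).

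How the claudins varied together within a diet was examined in the 6 pairs of cldn4l, cldn5, cldn7b and cldn15 in each diet, 12 correlations in all, of which 1 (8.33%) had a Benjamini-Hochberg value under 0.05. These genes too were chosen with earlier results of these data known. In GH5, cldn7b and cldn15 rose and fell together across 11 fish, with Pearson's r of 0.85 (permutation test, p = 0.00102, Benjamini-Hochberg 0.0122) and Spearman's rho of 0.94 (p = 8.99991e-05). Without the 2 fish farthest from the median of cldn7b, r was 0.86. In the 12 GB5 fish the same pair had r of −0.02 (permutation test, p = 0.942) and rho of 0.10. The difference between the correlations of the diets had p = 0.0137 by permutation and a Benjamini-Hochberg value of 0.0822 over the 6 pairs.

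**Figure D4:**
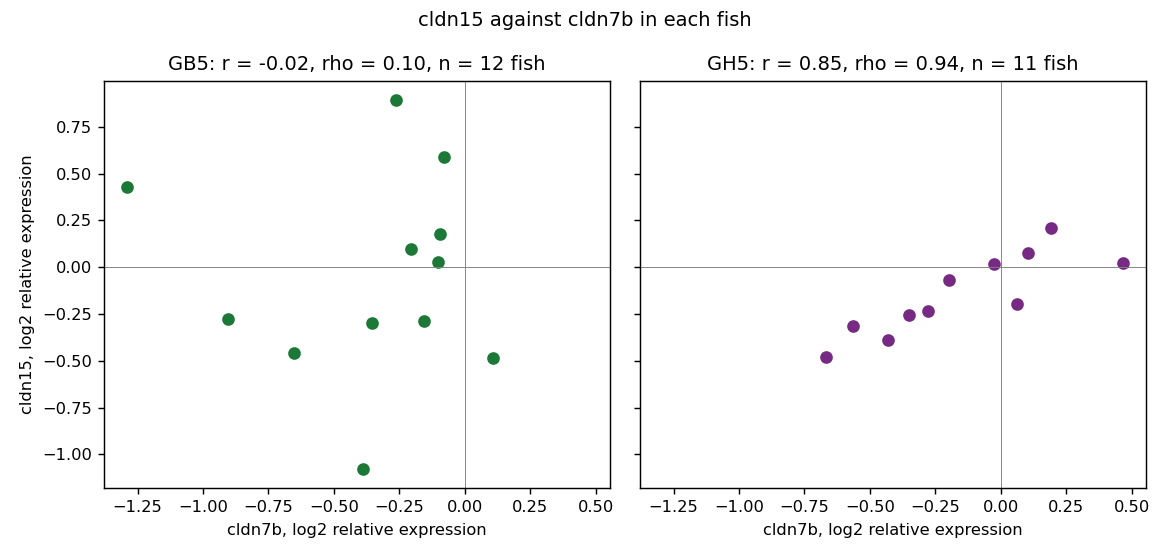
Log2 relative expression of cldn15 (y axis) against that of cldn7b (x axis) in each fish of GB5 (left, 12 fish) and GH5 (right, 11 fish). The GH5 fish lie along a rising line with r of 0.85, and the GB5 fish are scattered with r of −0.02.

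Both ratios share the eef1a cycle of the fish, so the pair was also compared on cycles alone. There r was 0.80 in GH5 (permutation test, p = 0.00384, Benjamini-Hochberg 0.0461) and −0.04 in GB5, and rho in GH5 was 0.66. The difference between diets had an unadjusted p of 0.0464 by permutation. Cycles of a fish still share its total amount of template, so a shared term was not removed. With any single GH5 fish left out, r on the ratios stayed between 0.80 and 0.90. In rank correlation a second pair was also under 0.05 after adjustment, cldn5 with cldn7b in GB5, with rho of 0.79 (permutation test, Benjamini-Hochberg 0.0211) and r of 0.54.

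All 91 pairs of targets were also correlated in each diet, a choice made after the values had been seen. Of 182 correlations, 19 (10.4%) were under 0.05 unadjusted, 9 in GB5 and 10 in GH5, and 0 after Benjamini-Hochberg adjustment, by permutation test in each case. The pair of cldn7b and cldn15 in GH5 thus did not pass over all pairs (permutation test, adjusted p = 0.0686). In GH5, cd4 and il10 had r of 0.84 and rho of 0.81, and 0.80 without the 2 farthest fish (permutation test, n = 12, adjusted p = 0.0546). In GB5 the same pair had r of 0.41, and the test of the difference gave p = 0.0997 by permutation. In GH5 cldn15 also fell as cd4 rose, with r of −0.81 across 11 fish (permutation test, p = 0.00346, adjusted p = 0.126), beside 0.03 in GB5. The highest correlation in GB5, cldn4 with cldn24 at r of 0.88, was 0.62 without the 2 farthest fish. In GH5 it had r of 0.62 but rho of 0.22, and r was −0.26 without the 2 farthest fish.

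The difference between the ingredients at 0.5% was then set against the difference at 1%, with all 4 supplemented diets and 43 to 48 fish per gene. For cldn4l, LB-GUThealth minus LB-GREENboost was −0.37 on the log2 scale at 0.5% and 0.30 at 1%. The difference between these was −0.67 ± 0.25 (SE, permutation test, p = 0.00957, Benjamini-Hochberg 0.134), again in 1 of 14 genes (7.14%) at an unadjusted p under 0.05. Without eef1a, from the cycle alone, it was −0.36 with p = 0.0641 in the permutation test. The mean cldn4l cycle was 24.81 in GB5 and 25.11 in GH5, and 25.08 in GB10 and 25.01 in GH10. At 1% the cycles thus lay closer together than the log2 ratios. A log2 ratio is the eef1a cycle minus the target cycle, apart from a constant, so the mean eef1a cycle was later in GH10 than in GB10. This raised the 1% differences of all 7 claudins and il10 alike. For cldn3 the mean cycle at 1% was 31.01 in GB10 and 30.98 in GH10, beside a log2 difference of 0.25. The eef1a difference between GB10 and GH10 was not tested here.

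**Figure D5:**
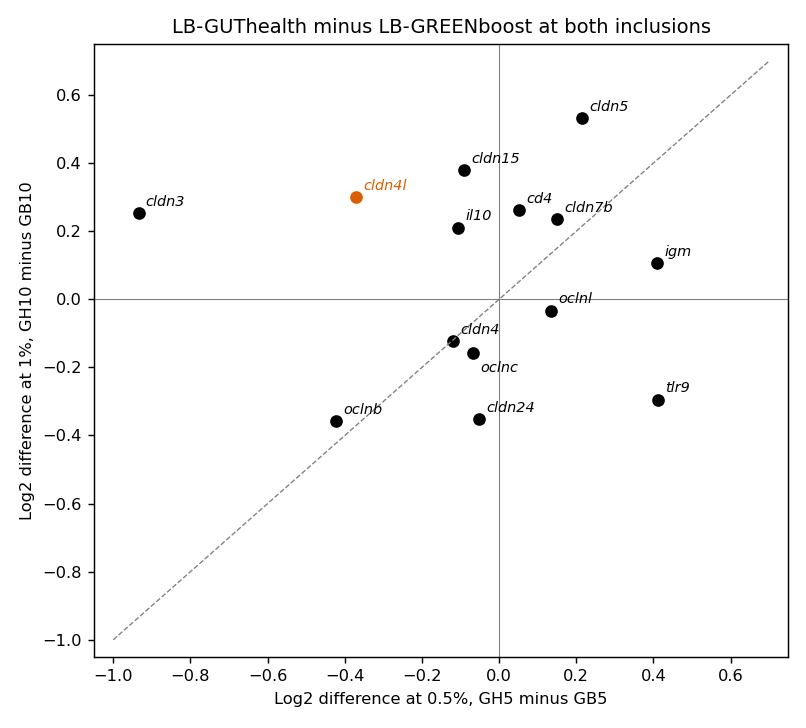
Log2 difference between LB-GUThealth and LB-GREENboost at 1% inclusion (y axis, GH10 minus GB10) against that at 0.5% (x axis, GH5 minus GB5) for 14 genes, with equal differences on the dashed line. The gene cldn4l (orange) lies at −0.37 and 0.30. In the deposited values, without the fish left out by the authors, 6 genes have opposite signs at the 2 inclusions with eef1a as the reference.

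In the deposited values, with eef1a as the reference, the sign differed between the inclusions in 6 of 14 genes, namely cldn3, cldn4l, cldn15, oclnl, il10 and tlr9. With the 2 left-out GB5 fish returned, the oclnl difference at 0.5% was −0.23, the same sign as at 1% (−0.033). For tlr9, 10 GH10 fish had a ratio and 12 had a cycle. Whether the sign of tlr9 at 1% depended on the fish without a ratio was not tested. For il10 the mean cycle was 29.57 in GB5 and 29.60 in GH5, and 29.70 in GB10 and 29.72 in GH10. The cycles of il10 alone thus had the same sign at both inclusions. For cldn15 the difference was −0.09 at 0.5% and 0.38 at 1%. The permutation test of the difference gave p = 0.0688 on the log2 scale (Benjamini-Hochberg 0.481) and an unadjusted p = 0.0242 on the linear scale. The mean cldn15 cycle was 24.23 in GB5 and 24.26 in GH5, and 24.32 in GB10 and 24.17 in GH10. At 1% the cldn15 cycles too lay closer together than the log2 ratios. In cldn5 the ingredients differed in the same direction at both, by 0.22 at 0.5% and 0.53 at 1%. At 1% the mean cldn5 cycles lay closer together than this, at 28.28 in GB10 and 27.99 in GH10. The oclnb differences were −0.42 and −0.36.

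Control fish are the shared base of the scale, and in some genes both diets lay on the same side of their mean of 1. In oclnl the means of GB5 and GH5 were 0.601 and 0.643, in oclnb 0.736 and 0.699, in cldn7b 0.801 and 0.891, and in igm 0.739 and 0.831. In cldn4l they were 0.916 and 0.706, and in cldn5 0.885 and 0.988. The oclnl mean of GB5 leaves out fish 3 and fish 8, whose cycles give 2.07 and 2.57. The reference cycles of oclnl and oclnb are in doubt, as are the igm values of fish 9 to 12. In cldn24 both means were above 1, at 1.50 and 1.41, but the medians were 1.01 and 0.959, and the means without fish 4 of GB5 and fish 11 of GH5 were 1.05 and 1.08. With control fish 6 returned, the control mean of cldn24 would be 1.77, above both diets. These means were not tested against the control here.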

How the data were processed

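Anterior intestine of gilthead seabream juveniles fed 5 diets was analysed by the authors with real-time qPCR (EvaGreen chemistry, duplicate wells), with 12 fish for each diet. The authors deposited quantification cycles, which are on a log2 scale, and relative expression. The deposited relative expression is a ratio, computed by the authors as 2 to the power of minus ΔΔCT to eef1a and the control mean, which assumes a doubling in each cycle, and outliers had been removed with the ROUT method. Which software and threshold gave the cycles is not given in the sources used here. A deposited table of the authors' fold changes between groups was not used.

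Recomputed from the cycles, the ratios of the claudins, cd4, il10 and tlr9 follow from 1 eef1a list and those of the occludins from a second. In GB5 and GH5, 5 values with a cycle had no ratio and 4 had no cycle, a cycle listed as 0 counting as none.

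Groups were taken from the sample labels. The log2 ratio was compared by a two-sided permutation test of the difference in means (100000 resamples, or exact enumeration with fewer than 10 fish in a diet), with the 95% interval by inversion of the test, a threshold of 0.05 per gene and Benjamini-Hochberg adjustment over 14 genes. Spread was compared by the distance from the diet's median, the ingredient difference between inclusions by a studentized permutation over 4 diets, the profile by permutational multivariate analysis of variance, and correlations by permutation. All 14 targets are named, with the lowest, median and highest fish for the 3 genes of smallest p and for oclnl, tlr9, cldn5 and cldn15. The members, lists and designs were chosen with earlier results of these data known. The scripts were tested on simulated data. The files hold 1 cycle for each gene of a fish and no value of single wells, and the number of fish limits the precision.

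The alternatives were the linear ratio, ranks, recomputation from all cycles, 1 eef1a list, the mean of all targets as the reference, cycles alone, only fish with all genes, a Welch-type statistic, limma over 5 diets, adjustment over the pairs of diets, and each fish left out in turn. Chosen after seeing the data were the mean of the targets without occludins and igm, the omission of fish 4 of GB5 and fish 11 of GH5, igm without fish 9 to 12, all pairs of targets, the second eef1a list, and oclnl and tlr9 from cycles in only the fish with a ratio. Recomputation, 1 eef1a list, cycles alone and the mean of all targets include the fish left out by the authors and the igm cycles equal to cldn15. Python 3.11.15, numpy 2.4.6, scipy 1.17.1, matplotlib 3.10.9, R 4.3.3 and limma 3.58.1 were used.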

Additional observations from a re-analysis of the deposited data

Results flagged for a closer look

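The ingredient difference of cldn4l at 0.5% minus that at 1% was −0.67 on the log2 scale, and its own permutation test gave p = 0.00957 (Benjamini-Hochberg 0.134 over 14 genes). With the mean of all targets as the reference it was −0.36 with p = 0.203 in the permutation test.

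In 5 cases a fish that the authors had left out had a cycle that corresponds to a level above every control fish that was kept. For oclnl these were fish 3 and fish 8 of GB5, at 2.07 and 2.57, where the highest control fish was at 1.75. For tlr9 they were fish 4 and fish 8 of GB5, at 16.7 and 4.22, and fish 11 of GH5, at 9.65, where the highest control fish that was kept was at 1.62. Control fish 6, left out for tlr9 as well, was at 12.9, above 2 of these 3. Fish 4 of GB5 and fish 11 of GH5 were also the highest of their diets in cldn3, cldn4, cldn5, cldn24 and il10, for which they were kept. Fish 8 of GB5 was left out for both genes and was the highest of its diet in oclnl alone.

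Among the fish that were kept, the highest GB5 fish of oclnl, fish 10, lay far from the others on the linear scale, where its gap to the next fish was 0.639 of the range and Dixon's critical value is 0.493. On the log2 scale used for the tests the gap was 0.490, below that value. Chance puts about 5% of complete groups past it. Here fish 3 and fish 8 of GB5, both higher than fish 10, had been left out beforehand, so this rate need not hold. The oclnl cycle of fish 10 was 25.88, near the 25.84 of fish 12, whose ratio was 0.535. The higher ratio of fish 10 therefore comes from its cycle in the second eef1a list. In the first list, fish 10 and fish 12 were at 18.545 and 18.575. Fish 10 was also the highest of GB5 in oclnb and oclnc, which use the second list too. With the first list the oclnl difference in the deposited fish was 0.10 (exact permutation test, p = 0.597), and the gap was not tested. In tlr9 of GB5 the gap was 0.300 on the linear and 0.190 on the log2 scale, with a critical value of 0.466.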

How the results depend on the processing

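Signs turned in 7 genes, with 0 of these differences under 0.05 in the permutation test before or after turning. For oclnl, GH5 minus GB5 was −0.23 from all cycles, −0.16 with 1 eef1a list, −0.035 with the mean of all targets as the reference and −0.14 with cycles alone, all with the 2 left-out GB5 fish returned (n = 11), and it was 0.22 with the mean of the targets without occludins and igm in the 9 deposited fish. For cldn24 it was 0.066 with the mean of all targets, 0.0175 with cycles alone, 0.047 with the mean of the targets without occludins and igm, and from −0.25 to 0.17 with a fish left out. For il10 it was 0.034 and 0.00435 with these 2 means, 0.174 in mean rank and from −0.35 to 0.15 with a fish left out. For oclnc it was 0.043 and 0.024 with the 2 means, 1.17 in mean rank and from −0.16 to 0.068 with a fish left out. For cd4 it was −0.031 on the linear scale and from −0.014 to 0.20 with a fish left out, and for cldn4 from −0.43 to 0.22. In the fish with all genes, cd4 was −0.058, cldn15 0.017, cldn24 0.020, cldn4 0.31 and il10 0.39.

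The count of genes under 0.05 was 0 with cycles alone, with fish that have all genes, with the mean of the targets without occludins and igm, and after adjustment over the 10 pairs of diets, and from 1 to 2 with a fish left out. It was 1 with the mean of all targets, but the gene was cldn5 in place of cldn4l. The count for the ingredient difference between inclusions was 2 on the linear scale and 0 with both target means, cycles alone and fish with all genes. The count for spread was 2 with 1 eef1a list and 0 with both target means, cycles alone, fish with all genes and without fish 4 of GB5 and fish 11 of GH5. Claudin correlations under 0.05 after adjustment numbered 2 in ranks, 3 with the mean of all targets and 10 with the mean without occludins and igm. The cause was not tested. The eef1a cycle and the share of profile variance gave no call in any setting run.

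No paired analysis was possible because neither the labels nor the files pair fish of different diets. Tanks could not be modelled, 12 fish per diet leave intervals wider than 2-fold for cldn3, cldn4, cldn24, oclnb, igm, il10 and tlr9, and no well-level values were used.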
